A study of Mus musculus with 20 samples.

Results

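Integrins are the receptors by which cells hold on to extracellular matrix and to other cells, and 10 of their genes are described here in mouse macrophages. They are a list of gene names, chosen with earlier results of these data known and found among the 46318 genes that the files count. The 10 are the leukocyte α subunit genes Itgam, Itgax and Itgal with their shared β subunit gene Itgb2, the αv subunit gene Itgav with Itgb5, and Itga4, Itga5 and Itga6 with their shared β subunit gene Itgb1. The libraries came from macrophages grown out of the bone marrow of C57BL/6 female mice in medium with a recombinant growth factor, spelled M-DSF in the labels. Cells were incubated for 24 h with DMSO, the solvent, with DSHN at 50 µM, with GW3965 at 1 µM, or with both compounds together, a group named DSHNplusGW; doses are stated for the single compounds and are taken to be the same in the combination. Each of the 4 groups has 5 libraries. GW3965 is an agonist of LXR, the nuclear receptor that senses oxysterols and drives cholesterol export, and the series describes DSHN as an agonist of NR0B2, an orphan nuclear receptor that inhibits LXR. The libraries therefore let the effect of each compound on integrin transcripts be read alone and in the presence of the other. The labels call the libraries biological replicates but do not say whether they came from separate mice, so p-values measure the spread between these samples, which may be technical.

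An integrin is a pair of an α and a β subunit, and neither reaches the cell surface in quantity without the other. Macrophages carry Itgam-Itgb2 (CD11b/CD18, complement receptor 3), which binds iC3b, fibrinogen and ICAM-1, Itgal-Itgb2 (LFA-1), which binds ICAMs, and Itgax-Itgb2 (CD11c/CD18, complement receptor 4). Itgav-Itgb5 binds vitronectin and serves the uptake of apoptotic cells, Itga5-Itgb1 is the main fibronectin receptor, Itga4-Itgb1 (VLA-4) binds VCAM-1 and fibronectin, and Itga6-Itgb1 binds laminin. Talin and kindlin bind the β tail to switch the pair on, and a complex of adaptor proteins and kinases links it to actin.

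Library totals ran from 16855029 to 23796561 counts, and of all genes 13307 passed the filter on low counts. All 10 integrin genes passed, with 402 to 31844 counts per library. Macrophage markers were high in every library: the 8 listed genes summed to 14900 to 18133 CPM, the counts scaled to library totals and TMM factors. Flt3 and Cd3e had at most 1 count in any library. In DMSO, DSHN, GW3965 and DSHNplusGW in turn, the B cell list had mean sums of 32.2, 58.1, 73.3 and 66.1 CPM. The erythroid and platelet list had 154, 191, 151 and 249 CPM. Means were 1.56, 1.33, 1.68 and 2.05 CPM for the dendritic cell list. They were 0.937, 0.944, 0.448 and 1.11 for the neutrophil list and 8.79, 10.5, 10.9 and 9.27 for the T and NK cell list. The fibroblast and endothelial list summed to 2244 to 2834 CPM in DMSO, 2394 to 3041 in DSHN, 2504 to 3277 in GW3965 and 1879 to 2292 in DSHNplusGW. Most of that sum was Col1a1 and Col1a2, while Dcn had 1 to 14 counts and Lum 0 to 4. The part of these lists in any integrin result was not tested. The 5 DSHNplusGW libraries stood apart from the other 15 in their dependence on exon length: the slope of log2 CPM on log2 exon length, taken against the mean of all libraries, was -0.124 to -0.0943 in them and 0.00566 to 0.0630 in the others. Mitochondrial rRNA and tRNA genes took 0.232% ± 0.0197 (SD, n = 5) of counts in DSHNplusGW and 0.123% ± 0.00964 (SD, n = 5) in DMSO. Because integrin α subunit genes are long, changes of the members that rest on DSHNplusGW are given as counted and with a correction of every library for exon length; levels and ratios are as counted.

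In the mouse build GRCm39 of the files, Itgal (chromosome 7, 126895404 to 126934309), Itgam (127661812 to 127717663) and Itgax (127728697 to 127749829) lie in 1 region of the same chromosome. Itgb2 lies on chromosome 10 from 77366164 to 77401542. Itga6 (71617236 to 71688771), Itga4 (79084767 to 79163458) and Itgav (83551625 to 83637261) are all on chromosome 2. Itgb5 lies on chromosome 16 from 33650035 to 33769708 and Itgb1 on chromosome 8 from 129412135 to 129460060. Itga5, on chromosome 15 from 103252713 to 103275218, is the member on the minus strand. Summed exon length ran from 2974 bases in Itgb2 to 10171 in Itgav and 13214 in Itga4. Values are counts over all annotated exons of each gene. Itga4 shares 166 exon bases, 1.26% of its length, with the antisense gene Cerkl, and the reads there cannot be told apart because no strand option stands in the counting command. None of the other 9 shares exon bases with another gene.

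Per kilobase of exon, the β subunit genes and Itgam were the most abundant members in DMSO. Itgb1 stood at 317 ± 8.76 CPM per kb (SD, n = 5), Itgam at 303 ± 11.3 and Itgb2 at 262 ± 12.3. Itgb5 followed at 94.9 ± 3.75 and Itga6 at 91.0 ± 2.91 CPM per kb. Then came Itga5 at 56.6 ± 3.82, Itgav at 42.0 ± 3.03 and Itgal at 36.7 ± 2.69, and Itgax and Itga4 were lowest at 18.2 ± 2.48 and 18.0 ± 1.47 CPM per kb. In this order the DMSO libraries of Itgb1 and Itgam overlapped, as did those of Itgb5 and Itga6, Itgav and Itgal, and Itgax and Itga4, while each of the other neighbouring genes was separate. In DSHNplusGW the order was Itgb1 at 259, Itgb2 at 221, Itgam at 213, Itgb5 at 89.3, Itga6 at 58.6, Itga5 at 28.3, Itgav at 22.04, Itgal at 18.8, Itga4 at 10.6 and Itgax at 6.37 CPM per kb. There Itgb2 stood above Itgam, although their libraries overlapped.

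**Figure D1:**
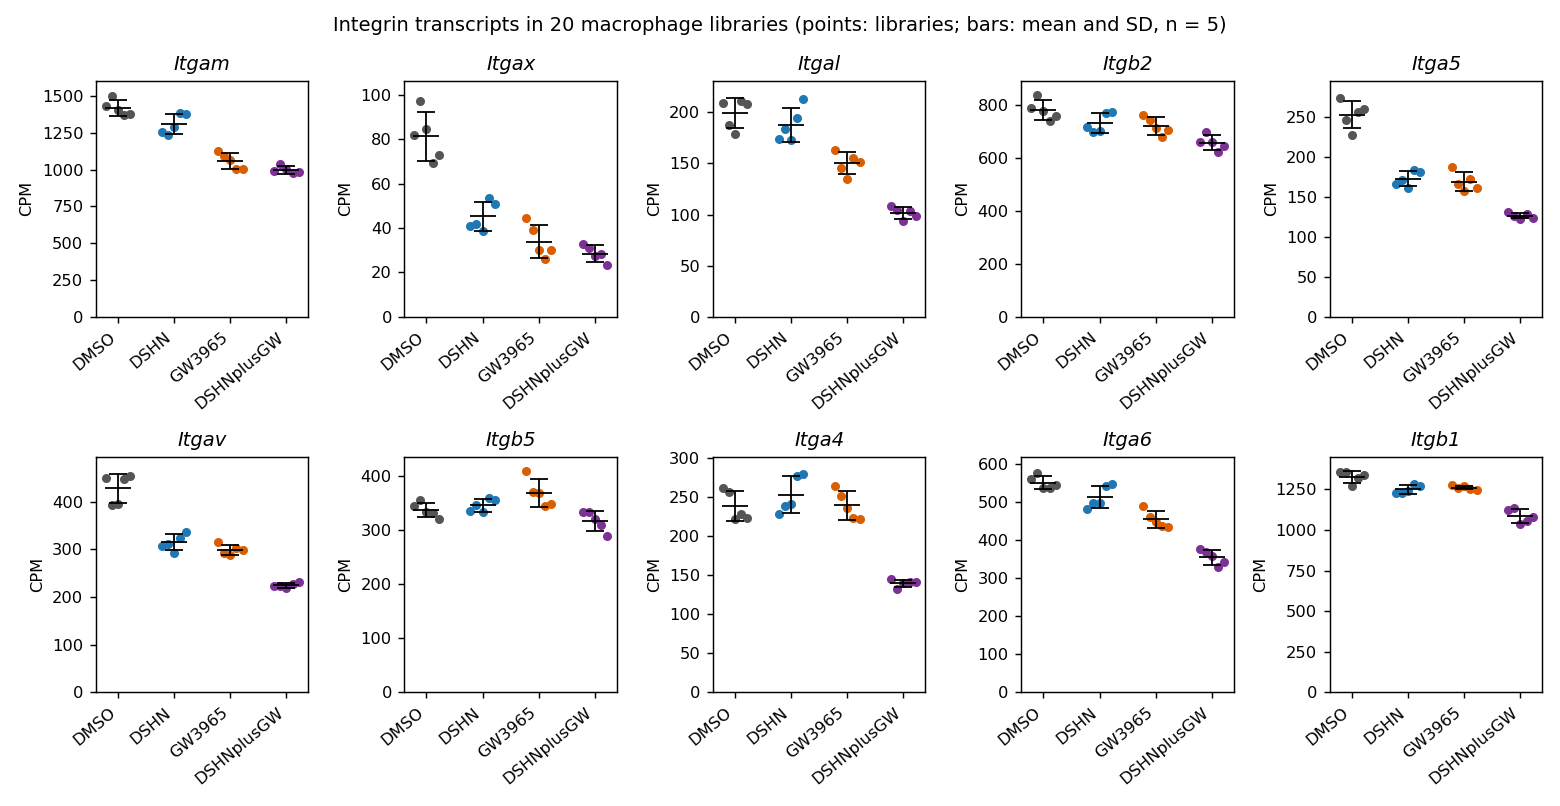
TMM-scaled CPM of each integrin gene in the 20 libraries, by group, with axes that start at 0; points are libraries and bars give the mean and SD of 5. Itgax, Itga5 and Itgav lie lower in DSHN and GW3965 than in DMSO without overlap, and Itga4 is low in the DSHNplusGW libraries, at 132 to 145 CPM.

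Transcripts of the 10 listed integrin genes fell far more often than they rose. Because the list was chosen with earlier results of these data known, the shares of all genes beside it are a description. They are no test of integrins as a class. With DSHN alone, 5 of the 10 genes fell and none rose (edgeR quasi-likelihood test over all genes, adjusted p under 0.05), where 28.9% of all genes tested were called and 14.8% were called lower. With GW3965 alone, 8 fell and 1, Itgb5, rose, beside 46.5% of all genes called (23.6% higher and 23% lower). With both compounds 9 fell and none rose, beside 64.8% called (31.9% higher and 32.9% lower), and Itgb5 was the member not called. The median log2 change of the 10 was -0.10 with DSHN, -0.34 with GW3965 and -0.70 with both, where the median of all genes lay between 0.00 and 0.01. With length correction the median for both compounds was -0.48, and the same 9 genes fell. The 3 comparisons share the DMSO libraries. In bulk RNA a lower level can come from fewer cells of a type or from less RNA per cell, and these cannot be told apart.

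Groups of 5 and 5 libraries did not overlap for 3 members with DSHN, 6 with GW3965 and 9 with both, where 18.6%, 32.1% and 49.7% of all genes did not overlap. A change past 1.5-fold was measured for 1 member with DSHN and 1 with GW3965, Itgax in both, and for 6 with both compounds. The share of all genes past 1.5-fold was not computed. The smallest of those 6 changes, in Itga6, ranked within the 14.5% of tested genes with the largest absolute change. With length correction Itga4 and Itga6 no longer passed 1.5-fold. Of the members called against DMSO, Itgax, Itga5 and Itgav with DSHN, and these 3 with Itgam, Itgal and Itga6 with GW3965, were called under every alternative setting and without any of the 20 libraries. The smaller falls of Itgam and Itgb1 with DSHN were lost without DMSO replicate 1 (adjusted p = 0.0575 and 0.0621) or without DMSO replicate 2 (adjusted p = 0.0795 and 0.0505), which leaves 3 of 10 called. The Itgam call was also lost without DSHN replicate 1 or 2 (adjusted p = 0.0586 and 0.0663).

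**Figure D2:**
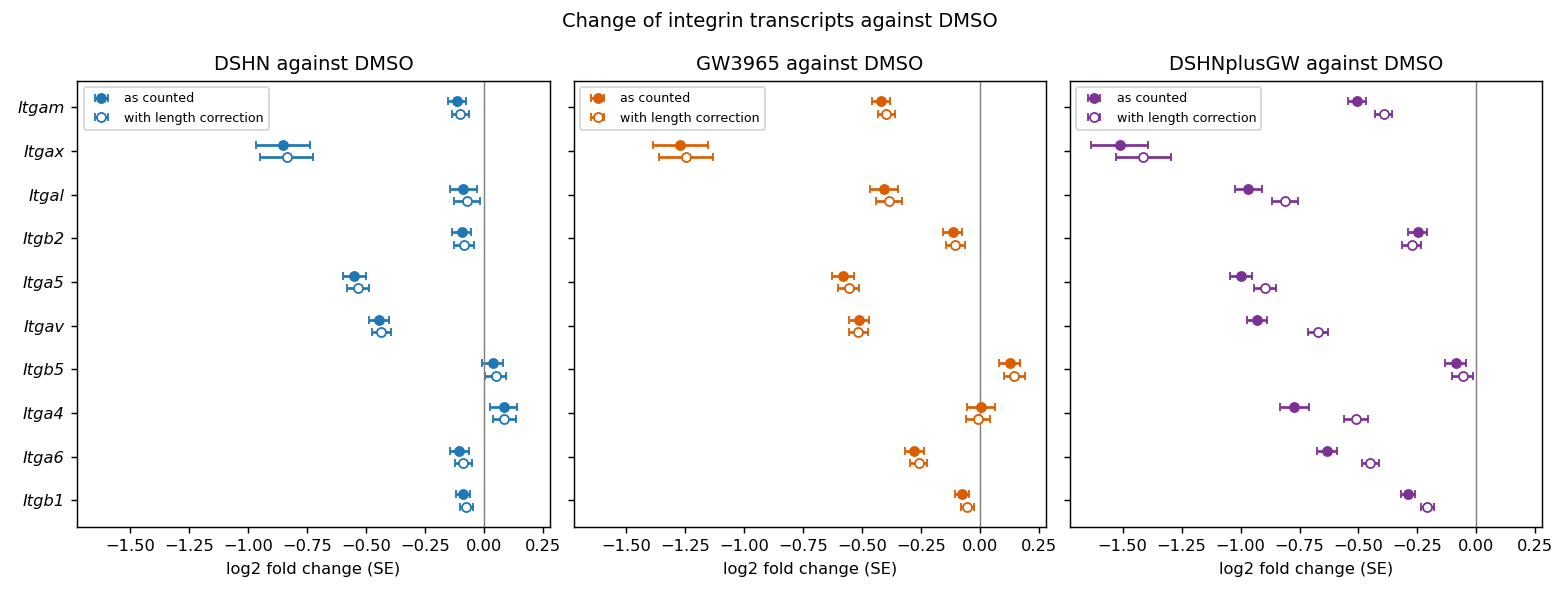
Log2 fold change of each integrin gene against DMSO with its SE for DSHN, GW3965 and DSHNplusGW; filled points are as counted and open points carry the correction for exon length. Itgax has the lowest value in each panel, at -0.85, -1.27 and -1.51 as counted, and the correction moves Itgav and Itga4 most in DSHNplusGW.

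Itgax, the α subunit of CD11c/CD18, had the largest fall of the 10 against DMSO with each compound and with both. It stood at 81.9, 97.6, 84.9, 69.3 and 73.0 CPM in the 5 DMSO libraries and at 40.8, 42.0, 38.9, 53.6 and 51.0 in DSHN. In GW3965 it stood at 44.4, 39.0, 29.9, 26.0 and 30.1 CPM, and in DSHNplusGW at 32.8, 30.9, 27.2, 28.3 and 23.2. Every DMSO library lay above every treated library, while GW3965 overlapped with both DSHN and DSHNplusGW. Its log2 change was -0.85 ± 0.11 (SE) with DSHN (0.554 times the DMSO level, adjusted p = 2.7e-06), -1.27 ± 0.12 with GW3965 (adjusted p = 1.5e-09) and -1.51 ± 0.12 with both (adjusted p = 2.9e-11). Corrected for length, the value for both compounds was -1.41 ± 0.12. These changes ranked within the 1.3% of tested genes with the largest absolute change in each comparison, a description that includes genes of low count. Beside this, the dendritic cell list summed to 1.04 to 2.39 CPM over the 20 libraries, so those markers were near 0. Zbtb46, a factor of classical dendritic cells, had 10 to 26 counts. It and Clec9a were the 2 genes of that list tested. Clec9a was called higher with GW3965 (1.135 on the log2 scale) and with both compounds (1.254), and Zbtb46 in neither. The part of such cells was not tested.

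Itgam, the α subunit of CD11b/CD18, was the most abundant of the leukocyte α subunit genes, and its relative falls were smaller than those of Itgax. Its CPM was 1434, 1499, 1405, 1368 and 1377 in DMSO and 1253, 1237, 1290, 1386 and 1376 in DSHN. It was 1128, 1090, 1069, 1002 and 1007 in GW3965 and 988, 1037, 1002, 977 and 981 in DSHNplusGW. DMSO and DSHN overlapped, whereas every library with GW3965, alone or with DSHN, lay below all 10 libraries without it. The log2 change was -0.11 ± 0.04 with DSHN (adjusted p = 0.0253), -0.42 ± 0.04 with GW3965 (adjusted p = 1.4e-09) and -0.51 ± 0.04 with both (adjusted p = 1.4e-11), or -0.39 ± 0.04 with length correction. Between DSHNplusGW and GW3965 the difference missed the threshold at -0.09 (95% interval -0.16 to -0.01, adjusted p = 0.0562), and with length correction it was 0.00 (adjusted p = 0.934).

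Itgal, the α subunit of LFA-1, responded to GW3965 and most to the pair of compounds. In DMSO it had 209, 188, 179, 211 and 208 CPM, and in DSHN 174, 184, 173, 195 and 213. In GW3965 it had 163, 145, 135, 155 and 152 CPM, and in DSHNplusGW 109, 104, 93.8, 104 and 98.6. The DSHN libraries overlapped with DMSO, those of GW3965 lay below both, and those of DSHNplusGW lay below all others. DSHN alone gave -0.09 ± 0.06 (adjusted p = 0.282), GW3965 -0.41 ± 0.06 (adjusted p = 2e-06) and both -0.97 ± 0.06 (adjusted p = 2.8e-13). With length correction the last value was -0.81 ± 0.06.

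Itgb2, the shared β subunit, had the narrowest range of group means among the leukocyte genes, at 0.25 on the log2 scale. Its CPM ran from 739 to 836 in DMSO, 698 to 773 in DSHN, 677 to 761 in GW3965 and 622 to 698 in DSHNplusGW. Single compounds overlapped with DMSO and the combination did not. The log2 change was -0.09 ± 0.04 with DSHN (adjusted p = 0.0873), -0.12 ± 0.04 with GW3965 (adjusted p = 0.0194) and -0.25 ± 0.04 with both (adjusted p = 6e-06), or -0.27 ± 0.04 with length correction. Leaving out DMSO replicate 2 ended the GW3965 call (adjusted p = 0.0726). For the leukocyte pairs, the summed level of the 3 α subunit genes per kilobase was 1.36 ± 0.0219 (SD, n = 5) times that of Itgb2 in DMSO and 1.32 ± 0.0212 in DSHN. The ratio was 1.08 ± 0.0174 in GW3965 and 1.08 ± 0.0237 in DSHNplusGW, and all 10 libraries with GW3965 lay below all 10 without it. Itgam made up 84.6% ± 0.447 of this α sum in DMSO and 89.4% ± 0.654 in DSHNplusGW.

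Promoter sequence is shown for Itgax and Itgam, the leukocyte genes with the largest relative change and the highest level. RefSeq promoter entries of GRCm38.p6, an older build than that of the files, matched 7 of the 10 members, and the 250 bases before the annotated start were searched in each. Capitals mark matches to GAGGAA (a PU.1 core, both strands), GGGCGG (an SP1 box, both strands) or TGANTCA (an AP-1 site, both strands); no 2 matches overlap.
Itgax (GRCm38.p6, chr7:128129300-128129549, plus strand): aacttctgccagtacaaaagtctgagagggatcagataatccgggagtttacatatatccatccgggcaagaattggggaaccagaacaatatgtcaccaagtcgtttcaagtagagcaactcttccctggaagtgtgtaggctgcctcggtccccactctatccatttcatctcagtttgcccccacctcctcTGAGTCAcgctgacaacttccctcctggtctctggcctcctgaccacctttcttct
Itgam (GRCm38.p6, chr7:128062390-128062639, plus strand): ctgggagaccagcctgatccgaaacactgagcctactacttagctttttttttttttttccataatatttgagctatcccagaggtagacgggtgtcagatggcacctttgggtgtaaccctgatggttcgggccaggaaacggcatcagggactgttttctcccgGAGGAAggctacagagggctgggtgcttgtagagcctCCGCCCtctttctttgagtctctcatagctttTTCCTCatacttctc
Itgam holds the PU.1 core at 84 to 79 and, on the opposite strand, at 15 to 10 bases before the start, and an SP1 box at 47 to 42. Itgax holds 1 AP-1 site, at 56 to 50 bases before the start, and neither of the others. Among 32851 promoters of the same length, 23.25% hold the PU.1 core, 32.74% the SP1 box and 6.75% the AP-1 site. The LXR element DR4, a direct repeat of AGGTCA with 4 bases between, searched on both strands, is in 0.02% of all promoters, and TATAAA, searched on the gene strand, in 7.59%; neither is in any of the 7 windows. A match describes these letters and is not a binding site.

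Itga5, the α subunit of the fibronectin receptor, fell with each compound and further with both. It had 274, 247, 228, 256 and 260 CPM in DMSO and 167, 172, 162, 184 and 181 in DSHN. It had 188, 167, 157, 173 and 162 CPM in GW3965 and 131, 126, 123, 129 and 124 in DSHNplusGW. DSHN and GW3965 overlapped with each other and lay below every DMSO library and above every DSHNplusGW library. The log2 change was -0.55 ± 0.05 with DSHN (adjusted p = 2.8e-09), -0.58 ± 0.05 with GW3965 (adjusted p = 1.9e-10) and -0.998 ± 0.05 with both (adjusted p = 4.3e-15), or -0.90 ± 0.05 with length correction. GW3965 against DSHN gave -0.03, with a 95% interval of -0.13 to 0.06.

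Itgav, the αv subunit, fell in the same 3 comparisons. Its CPM was 450, 394, 394, 447 and 453 in DMSO and 307, 312, 293, 324 and 336 in DSHN. It was 315, 292, 288, 304 and 298 in GW3965 and 224, 222, 218, 226 and 231 in DSHNplusGW. The single compounds overlapped with each other, and DMSO and DSHNplusGW were separate from both. DSHN gave -0.44 ± 0.04 (adjusted p = 1.5e-08), GW3965 -0.51 ± 0.04 (adjusted p = 2.1e-10) and both -0.93 ± 0.04 (adjusted p = 1.7e-15). Itgav has long exons, and with length correction the value for both compounds was -0.67 ± 0.04.

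Itgb5, the β partner of αv, was not called lower in any comparison with DMSO. It had 345, 356, 334, 332 and 321 CPM in DMSO and 335, 347, 333, 360 and 356 in DSHN. It had 409, 371, 368, 345 and 347 CPM in GW3965 and 334, 334, 320, 309 and 290 in DSHNplusGW. All 3 treated groups overlapped with DMSO. DSHN gave 0.04 ± 0.04 (adjusted p = 0.563) and GW3965 raised it by 0.13 ± 0.04 on the log2 scale (adjusted p = 0.0205), which was no longer called when DMSO replicate 4 or 5 or GW3965 replicate 1 or 2 was left out (adjusted p = 0.0567, 0.0759, 0.127 and 0.0517) and when libraries were scaled by total counts (adjusted p = 0.151). Both compounds gave -0.09 ± 0.04 (adjusted p = 0.0808), or -0.06 ± 0.04 with length correction. A correction for exon length and genomic span together, chosen after seeing the data, gave 0.14 (adjusted p = 0.000865), the opposite direction. Without DMSO replicate 5 or GW3965 replicate 1, Itgb5 was called lower with both compounds (adjusted p = 0.0426 and 0.0489). The level of Itgb5 per kilobase was 2.27 ± 0.229 (SD, n = 5) times that of Itgav in DMSO, 3.15 ± 0.0845 in DSHN, 3.52 ± 0.208 in GW3965 and 4.05 ± 0.298 in DSHNplusGW. None of the 15 treated libraries reached down to the DMSO range of 2.03 to 2.59.

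Promoter windows of Itga5, Itgav and Itgb5 are shown because Itga5 and Itgav fell with each compound and Itgb5 did not, with the same capitals as above.
Itga5 (GRCm38.p6, chr15:103366792-103367041, minus strand): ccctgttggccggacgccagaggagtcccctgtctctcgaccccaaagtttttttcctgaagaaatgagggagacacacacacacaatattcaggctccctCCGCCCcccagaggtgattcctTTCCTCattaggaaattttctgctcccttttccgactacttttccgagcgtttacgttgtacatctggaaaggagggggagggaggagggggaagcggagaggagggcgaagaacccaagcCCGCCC
Itgav (GRCm38.p6, chr2:83724147-83724396, plus strand): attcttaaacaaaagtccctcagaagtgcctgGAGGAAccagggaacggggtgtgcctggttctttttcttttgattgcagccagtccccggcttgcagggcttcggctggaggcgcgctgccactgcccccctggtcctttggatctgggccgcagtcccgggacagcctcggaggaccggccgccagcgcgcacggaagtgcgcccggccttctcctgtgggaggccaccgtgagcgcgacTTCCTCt
Itgb5 (GRCm38.p6, chr16:33829415-33829664, plus strand): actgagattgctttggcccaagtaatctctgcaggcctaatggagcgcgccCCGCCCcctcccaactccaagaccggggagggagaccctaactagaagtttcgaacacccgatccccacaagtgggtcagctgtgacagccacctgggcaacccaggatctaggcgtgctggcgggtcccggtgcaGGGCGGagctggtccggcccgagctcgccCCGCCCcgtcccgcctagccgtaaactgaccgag
Itga5 holds a PU.1 core at 127 to 122 and SP1 boxes at 149 to 144 and 6 to 1 bases before the start. Itgav holds PU.1 cores at 218 to 213 and 7 to 2 and no SP1 box, and Itgb5 holds 3 SP1 boxes and no PU.1 core. Of the members not printed, Itga4 holds 1 SP1 box and Itgb1 holds a PU.1 core and an SP1 box. Itgal, Itgb2 and Itga6 were not searched.

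Itga4, the α subunit of VLA-4, fell with both compounds together and was called with neither alone. Its CPM was 262, 257, 222, 228 and 223 in DMSO and 228, 239, 241, 277 and 280 in DSHN. It was 263, 251, 236, 223 and 222 in GW3965 and 145, 132, 140, 141 and 141 in DSHNplusGW. DMSO, DSHN and GW3965 overlapped, and every DSHNplusGW library lay below all 15 others. DSHN gave 0.08 ± 0.06 (95% interval -0.03 to 0.20, adjusted p = 0.301) and GW3965 0.00 ± 0.06 (95% interval -0.11 to 0.12, adjusted p = 0.966). Both compounds gave -0.77 ± 0.06 (adjusted p = 1.9e-11). Itga4 has the longest exons of the 10 genes, and with length correction the value was -0.51 ± 0.05 (adjusted p = 3.1e-09).

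Itga6, the laminin receptor α subunit, fell with GW3965 and more with both compounds. It had 562, 578, 537, 538 and 546 CPM in DMSO and 483, 498, 499, 543 and 547 in DSHN. It had 490, 462, 449, 439 and 436 CPM in GW3965 and 378, 369, 360, 329 and 342 in DSHNplusGW. GW3965 lay below DMSO but overlapped with DSHN, and DSHNplusGW lay below all others. DSHN gave -0.10 ± 0.04 (adjusted p = 0.0668), GW3965 -0.28 ± 0.04 (adjusted p = 4.8e-06) and both -0.63 ± 0.04 (adjusted p = 1.3e-12), or -0.45 ± 0.04 with length correction.

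Itgb1, the β subunit shared by these α subunits and the most abundant member per kilobase, had the smallest falls of the genes called with both compounds besides Itgb2. Its CPM ran from 1268 to 1358 in DMSO, 1226 to 1282 in DSHN, 1245 to 1274 in GW3965 and 1038 to 1136 in DSHNplusGW. DSHN and GW3965 overlapped with the lowest DMSO library, and DSHNplusGW was separate. DSHN gave -0.09 ± 0.03 (adjusted p = 0.0261), GW3965 -0.08 ± 0.03 (adjusted p = 0.0389) and both -0.29 ± 0.03 (adjusted p = 3.9e-09), or -0.21 ± 0.03 with length correction. The GW3965 call was lost without DMSO replicate 1, 2 or 5 or GW3965 replicate 5 (adjusted p = 0.0811, 0.0722, 0.0582 and 0.0507), and with length correction (adjusted p = 0.111). The summed level of Itga4, Itga5 and Itga6 per kilobase was 0.523 ± 0.00853 (SD, n = 5) of that of Itgb1 in DMSO, 0.478 ± 0.0193 in DSHN, 0.436 ± 0.0208 in GW3965 and 0.376 ± 0.0115 in DSHNplusGW. No treated library reached the DMSO range of 0.517 to 0.536. These ratios were not corrected for length.

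**Figure D3:**
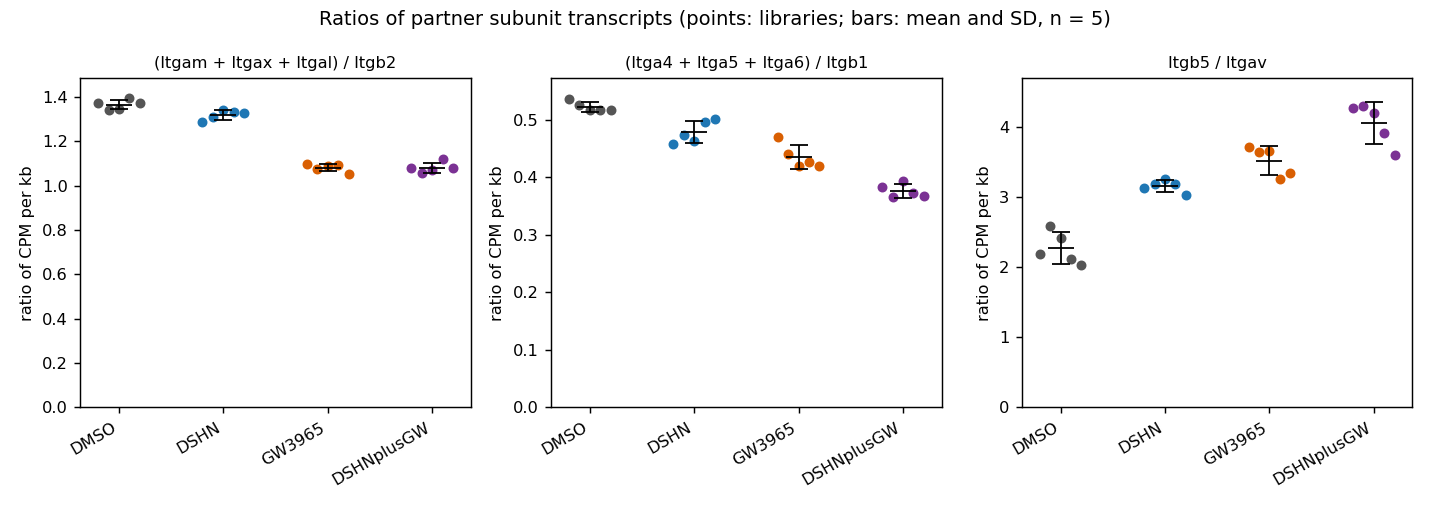
Ratio of partner subunit levels in CPM per kb in each of the 20 libraries, for the 3 leukocyte α genes over Itgb2, for Itga4, Itga5 and Itga6 over Itgb1, and for Itgb5 over Itgav; bars give the mean and SD of 5. Both α over β ratios are lowest with GW3965 present, at means of 1.08 and 1.08 for Itgb2 and 0.436 and 0.376 for Itgb1, and Itgb5 over Itgav is higher in each treated group than in DMSO.

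Adding DSHN to GW3965 lowered 8 of the 10 genes and raised none, beside 57.8% of all genes called and 29.5% called lower. Itga4 fell most, by 0.78 on the log2 scale (SE 0.06, adjusted p = 6.1e-11), followed by Itgal with -0.56, Itga5 and Itgav with -0.42 each and Itga6 with -0.36. With length correction these were -0.50, -0.42, -0.34, -0.16 and -0.19, and all 5 were still called. Itgb5 and Itgb1 gave -0.21 each, and Itgb2 gave -0.13 (adjusted p = 0.00683), a call lost with scaling by total counts (adjusted p = 0.074). With length correction these 3 were -0.20, -0.15 and -0.17. The correction for length and genomic span moved Itgb5 to -0.01 (adjusted p = 0.768). Itgax gave -0.24 with a 95% interval of -0.49 to 0.01 (adjusted p = 0.105) and was not called, nor with length correction at -0.16. Without GW3965 replicate 4 both Itgax (adjusted p = 0.0304) and Itgam (adjusted p = 0.0358) were called lower, and Itgam also without GW3965 replicate 5 (adjusted p = 0.0477). The median of the 10 was -0.30, or -0.18 with length correction, and that of all genes 0.02. Libraries did not overlap for 7 members and for 42.4% of all genes.

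Adding GW3965 to DSHN lowered all 10 genes, beside 58.1% of all genes called, 28.6% higher and 29.5% lower. The falls ran from -0.13 in Itgb5 to -0.88 in Itgal, with -0.86 in Itga4, -0.66 in Itgax, -0.53 in Itga6 and -0.39 in Itgam. With length correction Itgal stood at -0.74, Itga4 at -0.60, Itgax at -0.58, Itga6 at -0.36, Itgam at -0.29 and Itgb5 at -0.11, and all 10 were called. With genomic span corrected as well, Itgb5 reversed to 0.07 (adjusted p = 0.0721) and 9 of 10 were called. The Itgb5 call was lost without DSHN replicate 4 or 5 or DSHNplusGW replicate 4 or 5 (adjusted p = 0.0585, 0.0522, 0.0508 and 0.0874). Libraries did not overlap for 8 members, against 42.5% of all genes.

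The compounds compared directly differed in 4 members, all lower with GW3965 than with DSHN, where 17.1% of all genes were called, 8.3% higher and 8.82% lower. These were Itgax (-0.42 ± 0.12, adjusted p = 0.0147), Itgal (-0.32 ± 0.06, adjusted p = 0.000185), Itgam (-0.31 ± 0.04, adjusted p = 1.2e-06) and Itga6 (-0.18 ± 0.04, adjusted p = 0.00347). The 3 leukocyte α genes were all among them and Itgb2, at -0.02 (95% interval -0.10 to 0.06), was not. Itgav at -0.07 (-0.15 to 0.01), Itgb5 at 0.09 (0.00 to 0.17), Itga4 at -0.08 (-0.19 to 0.03) and Itgb1 at 0.01 (-0.05 to 0.07) were not called. Libraries did not overlap for 2 members, Itgam and Itgal, and for 12.4% of all genes.

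Whether the effect of DSHN depended on GW3965 was tested as a difference: the log2 change on adding DSHN to GW3965, less the log2 change on adding it to DMSO. The difference was called for 6 of the 10 genes, 1 higher and 5 lower, beside 50.2% of all genes called (23.7% higher and 26.5% lower). Itga4 had the largest, at -0.86 ± 0.08 (adjusted p = 1.2e-08): DSHN gave 0.08 alone and -0.78 in the presence of GW3965. For Itgal the difference was -0.47 ± 0.08 (adjusted p = 3.5e-05), from -0.09 alone to -0.56 with GW3965. Itgax went the other way, by 0.61 ± 0.17 (adjusted p = 0.00403), from -0.85 alone to -0.24 with GW3965. These 3 calls held under every alternative and without any library, and with length correction the values were -0.59, -0.35 and 0.67.

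The other 3 calls were smaller, and none of them held under every alternative. Itga6 and Itgb5 gave -0.25 each (adjusted p = 0.000896 and 0.00148) and Itgb1 -0.12 (adjusted p = 0.0161). With length correction Itga6 gave -0.10 (adjusted p = 0.104) and Itgb1 -0.08 (adjusted p = 0.0966), while Itgb5 stayed at -0.25 (adjusted p = 0.00188) but gave -0.08 (adjusted p = 0.187) when genomic span was corrected as well. The Itgb1 call was also lost without DSHN replicate 4 or 5 or DSHNplusGW replicate 3 or 4 (adjusted p = 0.0562, 0.0505, 0.0633 and 0.0574). Itgam, Itgb2, Itgav and Itga5 were not called as counted, at 0.03, -0.04, 0.03 and 0.13. With length correction Itgam gave 0.10 and Itgb2 -0.09, neither called, while Itgav gave 0.28 (adjusted p = 0.000355) and Itga5 0.19 (adjusted p = 0.019), so that 3 members were called higher and 3 lower. Itga5 was also called without DMSO replicate 3, DSHN replicate 4 or GW3965 replicate 1 (adjusted p = 0.0397, 0.0497 and 0.0196). Scaling by total counts gave 2 higher and 4 lower.

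**Figure D4:**
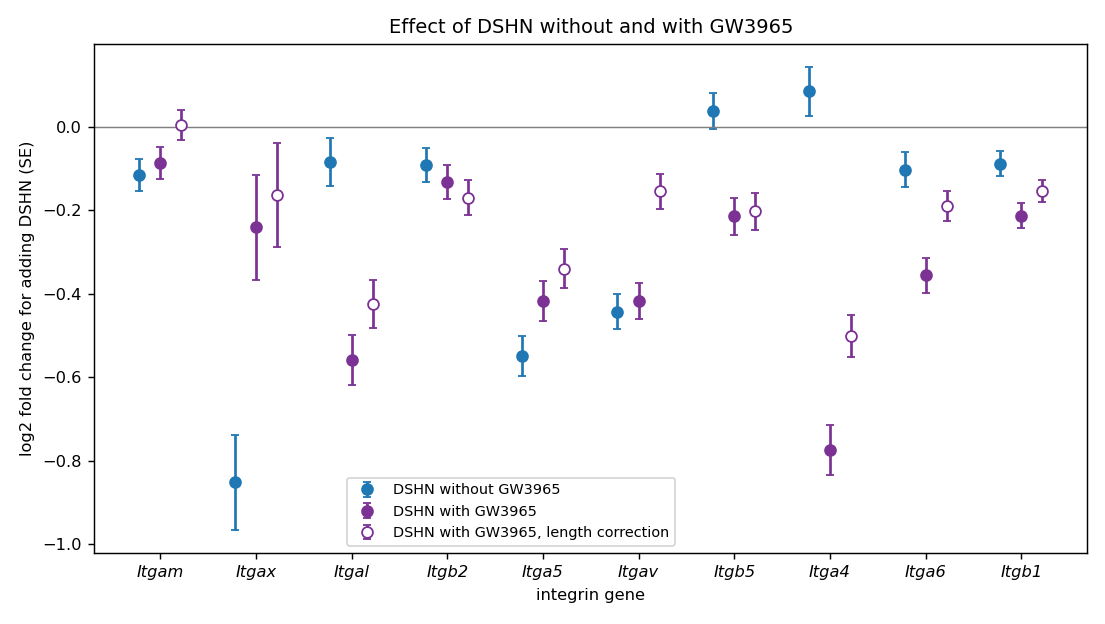
Log2 fold change for adding DSHN, with its SE, in the absence of GW3965 and in its presence as counted and with length correction, for the 10 genes. Itgax lies at -0.85 without and -0.24 with GW3965, whereas Itga4 lies at 0.08 without and -0.78 with it.

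Among the members, levels of Itgav and Itga5 were most alike over the 20 libraries (Pearson's r of log2 CPM 0.989, and 0.811 after subtracting group means). Itgb5 was least like the other 9 over the 20 libraries, with r from 0.216 to 0.690. After subtracting group means, its r ran from 0.039 with Itgav to 0.886 with Itgax. Itgam and Itgb2 were then the most alike pair of members (0.924). These values describe 20 libraries that share treatments and sequencing depth. Over all tested genes the 3 most like Itgax, the member with the widest range of group means, were Col18a1 (r = 0.968), Angptl2 (0.951) and Ptk2b (0.947). For Itga5 they were Itgav (0.989), the growth factor gene Csf1 (0.988) and Pik3ap1 (0.978), and for Itgal they were Dock4 (0.985), Adam10 (0.983) and Anln (0.983).

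Of 16 other integrin genes 10 were tested. This list and those that follow were also chosen with earlier results of these data known. Their counts, and those of the lists that follow, stand beside 14.1% of all genes called higher and 14.8% lower with DSHN, 23.6% and 23% with GW3965, and 31.9% and 32.9% with both. Itgb7, a β partner of Itga4, had 42.6 ± 2.41 CPM (SD, n = 5) in DMSO, 34.6 ± 1.36 in DSHN, 24.4 ± 1.15 in GW3965 and 28.3 ± 2.76 in DSHNplusGW, and fell in each (log2 change -0.30, -0.80 and -0.59, the last -0.42 with length correction). Itgb3, another β partner of αv, had 11.2 ± 1.40, 9.27 ± 0.364, 7.79 ± 1.04 and 6.07 ± 0.471 CPM and also fell in each (-0.27, -0.52 and -0.88, the last -0.70 with length correction). The osteoclast list, whose cells carry αvβ3, summed to 66.6 to 77.3 CPM in DMSO, 58.9 to 70.2 in DSHN, 41.4 to 51.9 in GW3965 and 45.1 to 50.8 in DSHNplusGW, with 4 of 6 genes tested and Calcr at 0 in all libraries. The part of such cells was not tested.

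Itga9, an α partner of Itgb1, fell with DSHN (-0.31 ± 0.06, adjusted p = 0.000125) and rose with GW3965 (0.29 ± 0.05, adjusted p = 8.6e-05), with 34.6 ± 2.18 CPM in DMSO, 27.9 ± 2.37 in DSHN, 42.3 ± 2.11 in GW3965 and 27.2 ± 1.19 in DSHNplusGW. Itga8, another partner of Itgb1, fell with GW3965 from 3.69 ± 0.664 to 1.34 ± 0.202 CPM. Itgad, a leukocyte α subunit with 2 to 26 counts per library, was called lower with GW3965 and with both compounds. Itga11 and Itga1, collagen-binding partners of Itgb1 known mainly from mesenchymal cells, had 53.7 ± 4.58 and 9.27 ± 1.68 CPM in DMSO and 33.3 ± 2.66 and 5.30 ± 0.842 in DSHNplusGW, the group in which the fibroblast and endothelial list was also lowest. Itga3 had 1.60 to 2.18 CPM, Itga7 0.824 to 1.07 and Itgb8 0.217 to 0.529 as group means. Itga2, Itga2b, Itga10, Itgae, Itgb4 and Itgb6 were below the filter. In all, 0 of the 10 rose and 3 fell with DSHN, 2 rose and 4 fell with GW3965, and 8 fell with both.

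Transcripts for the proteins that activate integrins and tie them to actin moved mostly down. Of 34 tested, 2 rose and 20 fell with DSHN, 6 rose and 18 fell with GW3965, and 6 rose and 25 fell with both, or 4 and 23 with length correction. Their median log2 change was -0.15, -0.13 and -0.30, beside 0.00 to 0.01 for all genes. With DSHN, Cytip, a regulator of LFA-1 adhesion, fell by 0.75 on the log2 scale, Apbb1ip, the adaptor that brings talin to Rap1, by 0.32 and Parvg, a parvin of leukocytes, by 0.37. With GW3965, Cytip fell by 1.06, the kinase gene Ptk2b by 0.40 and the adaptor gene Lims1 by 0.27. With both, Flna, which links β tails to actin, gave -1.32 (-1.07 with length correction) and Tln1, the talin gene, -0.99 (-0.74). Flna had 2554 ± 101 CPM in DMSO and 1021 ± 81.5 in DSHNplusGW, and Tln1 1168 ± 29.3 and 587 ± 42.5. The DSHN effect depended on GW3965 for 22 of the 34, 10 higher and 12 lower, beside 23.7% of all genes higher and 26.5% lower. Cytip was 0.99 higher there (1.14 with length correction), Fermt3, which encodes kindlin-3, gave -0.64 (-0.72), and the kinase gene Syk gave -0.58 (-0.32).

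Integrin ligand genes fell in most cases with both compounds, and with either compound alone most were not called. Of 27 listed genes 25 were tested and Vtn, the vitronectin gene, had no count in any library. With DSHN none of the 25 rose and 9 fell, beside 28.9% of all genes called, with GW3965 3 rose and 9 fell, beside 46.5%, and with both 1 rose and 22 fell, or 0 and 23 with length correction, beside 64.8%. Medians were -0.11, -0.06 and -0.58. Spp1, which encodes the αv ligand osteopontin, had 1374 ± 119 CPM (SD, n = 5) in DMSO, 706 ± 34.6 in DSHN, 556 ± 6.69 in GW3965 and 772 ± 45.6 in DSHNplusGW. Its log2 change was -0.96, -1.30 and -0.83 (-1.05 with length correction), and the DSHN effect was 1.43 ± 0.07 higher with GW3965 than without (adjusted p = 5.4e-14), or 1.253 with length correction. Tnc, for tenascin-C, gave -0.64, -0.66 and -1.48 (-1.25 with length correction). Fn1, for fibronectin, the ligand of Itga5 and Itga4, had 1446 ± 162 CPM in DMSO, 1341 ± 219 in DSHN, 1462 ± 218 in GW3965 and 566 ± 48.6 in DSHNplusGW. Fn1 fell by 1.37 and Fbn1, for fibrillin-1, by 1.53 on the log2 scale when DSHN was added to GW3965, or -1.13 and -1.27 with length correction. The fibroblast and endothelial list fell beside them in 5 of its 7 tested genes, or 4 with length correction. Of all genes, 29.5% were called lower in that comparison as counted. The part of that list in these falls was not tested.

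Transcripts for membrane partners of integrins moved both ways. Of 13 tested, 4 rose and 6 fell with DSHN, 5 rose and 5 fell with GW3965, and 6 rose and 4 fell with both, or 5 and 6 with length correction. Mertk, the receptor for apoptotic cells, rose in all 3 comparisons (0.46, 1.40 and 0.94, the last 1.17 with length correction), and Cd47, an integrin-associated protein, rose by 0.57 with GW3965. Cd14 fell with DSHN (-0.80) and with GW3965 (-0.71), as did Plaur, for the urokinase receptor (-0.73 and -1.30), and Sdc4, a syndecan, fell with GW3965 (-0.59). Of 13 genes of integrin trafficking, 3 rose and 4 fell with DSHN and 3 rose and 5 fell with GW3965. With both, 5 rose and 5 fell, or 6 and 4 with length correction. Dab2, an adaptor of integrin endocytosis, gave -0.38, -0.79 and -0.85 (-0.65 with length correction). Of 10 transcription factors of myeloid integrin promoters 9 were tested, with 2 higher and 2 lower, 3 higher and 4 lower, and 4 higher and 4 lower. The last counts were 3 higher and 1 lower with length correction. Irf8, a factor of the monocyte and macrophage lineage, rose with GW3965 (0.79), and Klf4 fell (-0.36 with DSHN and -0.55 with GW3965). Sp1 fell with both compounds by 0.32 as counted and was not called with length correction (adjusted p = 0.0527).

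All 6 LXR target genes listed rose with GW3965 (Scd1 by 4.37 and Srebf1 by 2.32 on the log2 scale), beside 23.6% of all genes. All 6 were lower with both compounds than with GW3965 alone, beside 29.5% of all genes. With DSHN alone 3 of the 6 rose (Mylip by 0.53, Abca1 by 0.46 and Abcg1 by 0.29) and none fell. Of 6 NRF2 target genes, 4 rose with DSHN, beside 14.1% of all genes, among them Gsta3 by 1.01 and Gclm by 0.53. Both lists were chosen with earlier results of these data known, so neither is an independent check of the treatments. Across the group means, the 5 members with the widest range were Itgax (1.51 on the log2 scale), Itga5 (0.996), Itgal (0.97), Itgav (0.93) and Itga4 (0.85), and the 3 β subunit genes had ranges of 0.21 (Itgb5), 0.25 (Itgb2) and 0.29 (Itgb1), below all 7 α subunit genes. These ranges are as counted, and every member had its lowest mean in DSHNplusGW. All 3 β genes have shorter exons than all 7 α genes, and the part of length in this order was not tested.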

How the data were processed

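RNA from mouse bone marrow derived macrophages was sequenced as stranded mRNA libraries, 5 in each of 4 groups taken from the titles. The authors deposited whole-number read counts per gene for each library; reads were aligned with STAR to GRCm39 and counted with featureCounts 2.0.0 of Subread, per the file headers and the submitters' processing notes. The counting command in the headers holds no strand option. The 46318 genes were named through a RefSeq gene table, which matched 44749; the 1569 others held 0.474% of counts and stayed in the tests without a name. Totals of 16855029 to 23796561 counts per library set the counting error.

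From these counts, genes were filtered by edgeR's filterByExpr, which left 13307, scaled by TMM, and tested with edgeR's quasi-likelihood test (edgeR 4.0.16, R 4.3.3) in 1 fit over all 20 libraries, with Benjamini-Hochberg adjustment over all genes tested and a threshold of 0.05. SEs are the absolute log2 change over the square root of the test's F. The biological coefficient of variation was 0.0536. Replicate libraries differed beyond sampling noise in all 40 pairs (chi-square per degree of freedom 2.468 to 13.266), so all were kept. Levels are TMM-scaled CPM, and CPM per kb of summed exon length where genes are compared. For the length correction, each library's deviation was fitted as a smooth curve of log2 exon length (natural spline, 5 df) and entered the model as an offset. On simulated counts for DSHNplusGW against GW3965 (13307 genes) with a length trend, the uncorrected fit called 4008 unchanged genes and the corrected fit 5. Of 50 genes changed 1.5-fold, they recovered 46 and 40. The simulated trend was linear in log2 exon length, a form the curve contains, so its removal was fixed in advance. Far fewer genes were changed than the 57.8% called in the data. The simulation therefore cannot show how the correction treats real changes in long genes.

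The alternatives comprised 2 other scalings (size factors of DESeq2 and library totals), filtering not at all or more strictly, the tests of DESeq2 1.42.0 and limma 3.58.1 voom, only the groups compared, the replicate number as a block, the length correction, both together, and leaving out each library. A correction for length and genomic span was added after seeing the data. The members and gene lists were chosen with earlier results of these data known. All 10 members were named; of each list, up to 3 called genes per comparison with the smallest adjusted p could be named, and every other integrin gene. Genes of marker lists and the genes Fn1, Flna and Tln1 are given with their levels as background to these.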

Additional observations from a re-analysis of the deposited data

Results flagged for a closer look

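The effect of DSHN differed with and without GW3965, by the test of that difference, in 6 of the 10 integrin genes, beside 50.2% of all genes tested (edgeR quasi-likelihood test, adjusted p under 0.05). The difference, with GW3965 minus without, was -0.86 on the log2 scale for Itga4, -0.47 for Itgal and 0.61 for Itgax. It was -0.25 for Itga6, -0.25 for Itgb5 and -0.12 for Itgb1. The DSHNplusGW libraries enter each of these values, and their dependence on exon length was set apart from that of the other 15 libraries. Its part in the uncorrected values was not tested beyond the length correction, with which Itga6 (-0.10) and Itgb1 (-0.08) were no longer called. Of 40 sets of 5 libraries (10 genes in 4 groups), 0 had a library set apart from the others by Dixon's test, where chance gives about 1 in 20.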

How the results depend on the processing

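The number of integrin genes called stayed within 1.5 times its value in every alternative except leaving out single libraries. Over the 20 omissions it ran from 3 to 7 for DSHN against DMSO (3 without DMSO replicate 1 or 2), 7 to 9 for GW3965 against DMSO, 9 to 10 for DSHNplusGW against DMSO, 8 to 10 against GW3965, 9 to 10 against DSHN, 4 to 4 for GW3965 against DSHN and 5 to 7 for the interaction. Of the other alternatives, 720 values kept direction and side of the threshold, 16 lost the threshold, 12 gained it and 12 reversed. Itga4 with GW3965, at 0.00 and not called, reversed to -0.054 with total counts, -0.0023 with only the groups compared, -0.0097 with length correction, -0.0094 with the replicate block and length correction and -0.0013 with length and span, and ran from -0.041 to 0.038 over the omissions. Itgam in DSHNplusGW against GW3965 reversed to 0.0041 with length correction, 0.0044 with the replicate block added and 0.061 with length and span. Itgb5 with length and span reversed to 0.14 against DMSO, where it was called higher, and to 0.074 against DSHN. Total counts reversed Itgb1 in GW3965 against DSHN to -0.024 and Itgb2 in the interaction to 0.037. The cause was not tested.

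Scaling by total counts gave 2267 genes higher and 4000 lower with GW3965 against DMSO, where TMM gave 3136 and 3058, 768 and 1641 for GW3965 against DSHN (1104 and 1174), and 4069 and 2853 for the interaction (3154 and 3527). Without a filter Itgb1 lost its calls with DSHN (adjusted p = 0.180) and GW3965 (adjusted p = 0.188), and Itgax was called in DSHNplusGW against GW3965. The replicate block gave 5, 9, 9, 8, 10 and 4 called members, as without it, and 7 for the interaction, where Itga5 was called (adjusted p = 0.0469). Of 30 same-numbered pairs 10 had r above 0.1 (median 0.0399) and 12 correlated best with their own number. The 15 pairs among DMSO, GW3965 and DSHNplusGW were all above 0 (0.0268 to 0.247), with 9 above 0.1 and 11 best with their own number, while the 15 pairs with DSHN ran from -0.2048 to 0.1472. In no comparison did every pair exceed 0.1, so the fit without the block is reported; a shared source of same-numbered libraries in those 3 groups is a hint from the data only. The interaction needs all 4 groups and has no value for only the groups compared. Low depth limits only the rare integrin genes, such as Itgad and Itgb8.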
